A study of Mus musculus with 4 samples.

Results

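MHC class I molecules and the machinery that loads them with peptide were followed through 9 genes, chosen by name from the 24369 genes listed in each library, and all 9 had enough counts to be tested. They were the light chain gene *B2m*, the heavy chain genes *H2-K1* and *H2-D1*, the peptide transporter genes *Tap1* and *Tap2*, *Tapbp* and *Tapbpl* (tapasin and its relative TAPBPR), the aminopeptidase gene *Erap1* and the regulator *Nlrc5*. RNA-seq covered 4 libraries of WT mouse CD4 T cells that had been isolated naive from spleen, 2 transduced with empty vector (EV RV) and 2 with retrovirus encoding Tox (Tox RV). Both groups were grown without polarizing cytokines on anti-CD3, anti-CD28 and IL-2, transduced on day 2, restimulated through CD3 on day 5 and sorted for CD4 and GFP. For the restimulation the methods give 5 hours with streptavidin and biotinylated anti-CD3, whereas the study's results text names anti-CD3 and anti-CD28. Both vectors were MSCV retroviruses with GFP behind an internal ribosome entry site, so the sort took transduced cells in either group, and Tox was driven by the retrovirus and not by its own promoter. The methods name C57BL/6 animals and 2 biological replicates per condition, and a figure legend gives 2 individual mice per group. Ages of these mice are not given in the sources used here.

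MHC class I molecules are carried by nearly all nucleated cells and show peptides from the cell interior to CD8 T cells. Proteasomes cut proteins into peptides, the TAP1 and TAP2 transporter brings these into the endoplasmic reticulum, ERAP1 trims them, and tapasin helps a heavy chain paired with β2-microglobulin to take one up. NLRC5 is a transactivator of MHC class I genes and is itself induced by interferons. It acts with RFX, CREB/ATF and NF-Y proteins at a composite promoter element, the SXY module, which lies beside NF-κB and interferon response sites in classical class I promoters.

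Promoter sequences from RefSeq (GRCm38.p6, the build of mm10) were matched by symbol for 6 of the 9 genes and ran from 250 bases before to 50 bases after the RefSeq start site. For *H2-D1*, *Erap1* and *Tapbp* the windows lie inside the gene bounds given below, which come from another annotation and begin before the RefSeq start site. The entries of *Tap2*, *Tapbpl* and *Nlrc5* were missing. Stretches of 4 promoters are shown because they hold the motifs that members share, with matched letters in capitals.

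H2-K1: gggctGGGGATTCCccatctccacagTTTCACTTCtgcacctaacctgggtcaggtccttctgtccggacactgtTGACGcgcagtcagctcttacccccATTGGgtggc

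H2-D1: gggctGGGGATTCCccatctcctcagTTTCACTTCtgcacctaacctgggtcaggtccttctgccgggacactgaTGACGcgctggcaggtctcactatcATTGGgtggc

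B2m: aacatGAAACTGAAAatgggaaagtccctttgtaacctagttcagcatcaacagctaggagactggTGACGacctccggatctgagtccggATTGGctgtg

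Erap1: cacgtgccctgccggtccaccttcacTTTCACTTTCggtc

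The stretches lie at chr17:34000354-34000463 (*H2-K1*, minus strand), chr17:35262918-35263027 (*H2-D1*, plus strand), chr2:122147543-122147643 (*B2m*, plus strand) and chr13:74639823-74639862 (*Erap1*, plus strand). The letters reported here, searched on both strands, were GGGNNTTCC for NF-κB, GAAGTGAAA for the class I form of the interferon-stimulated response element (ISRE), the general ISRE by its name (a pair of GAAA runs with any 2 bases between), TGACG for the core of a cyclic AMP response element (CRE), and CCAAT for NF-Y. No capitals in these stretches belong to more than 1 motif. The stretches of *H2-K1* and *H2-D1* were identical at 99 of 110 bases. In both, the ISRE letters began 21 bases, the CRE core 70 bases and the NF-Y letters 95 bases after the first base of the NF-κB letters. Of 32851 promoter windows searched for this arrangement, which was read from *H2-K1*, 3 held it, and all 3 belonged to *H2-K1*, with 2 annotated start sites, and *H2-D1*.

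The class I ISRE letters were found for 2 member genes, *H2-K1* and *H2-D1*, against 0.505% of all windows, and the NF-κB letters for the same 2 against 5.82%. The general ISRE letters were found in *B2m* and *Erap1* against 3.44% of all windows. The CRE core was found for 4 member genes against 20.8%, and the NF-Y letters for 5 against 37.4%. Of the 24 other class I heavy chain genes, 14 had a promoter entry. Among these 14, the class I ISRE letters were found in 5 (*H2-Q4*, *H2-Q6*, *H2-Q7*, *H2-Q10* and *H2-M3*). The NF-κB letters were found in 4 (*H2-Q4*, *H2-Q6*, *H2-Q7* and *H2-M2*), the CRE core in 5 and the NF-Y letters in 10. *H2-Q4* and *H2-Q7* thus held the NF-κB, class I ISRE, CRE and NF-Y letters, but not at the exact spacing read from *H2-K1*. These matches are a description of the letters and not of binding.

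Of the 9 genes, 5 lie in the MHC on chromosome 17 of mm10. *Tapbp* runs from 33915899 to 33929292, *H2-K1* from 33996017 to 34000347, *Tap1* from 34187553 to 34197225, *Tap2* from 34203527 to 34216321 and *H2-D1* from 35262730 to 35267499. The immunoproteasome genes *Psmb9* (34181987 to 34187764) and *Psmb8* (34197721 to 34201454) flank *Tap1*. *B2m* lies on chromosome 2 (122147686 to 122153083), *Tapbpl* on chromosome 6 (125223933 to 125231860), *Nlrc5* on chromosome 8 (94434356 to 94527272) and *Erap1* on chromosome 13 (74639568 to 74693201). All are annotated as protein coding. Some exons are shared with other genes, 212 bases of *Tap1* with *Psmb9*, 834 bases of *Erap1* with *Cast*, 533 bases of *Tap2* with *Gm15821* and 904 bases of *Tapbp* with *Gm19412*, each on the other strand. Also on the other strand, *Nlrc5* shares 78 exonic bases with *9330175E14Rik* and *Tap2* shares 165 with *Gm20496*. *Tapbp* also shares 149 exonic bases with *Zbtb22* on the same strand, which use of strand could not resolve. Since use of strand in counting is not stated, reads of those bases could belong to either gene.

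The libraries held 46989997 and 74548723 expected counts for EV RV, and 61442264 and 49012254 for Tox RV. *Tox* was at 11.7 and 5.73 CPM (counts per 1000000, scaled by TMM) in EV RV and at 121 and 99.9 CPM in Tox RV, on the side of its label in every library. EV RV replicate 1 stood apart, at -53.8 on the first principal component (58.0% of variance) against 5.70 to 25.8 for the others, and 45S pre-rRNA took 24.8% of its counts against 7.14% to 11.97%. T cell markers were abundant, with *Cd3e* at 71.6 CPM or more and *Cd4* at 323.6 CPM or more in each library. Summed markers of B cells (2 of 5 tested) were at 1.09 to 1.62 CPM and of myeloid cells (4 of 6 tested) at 3.99 to 5.44 CPM, and *Ms4a1*, *Pax5* and *Ncr1* had 0 counts in each library. *Cd8a* and *Cd8b1* summed to 4.65 and 3.88 CPM in EV RV and 4.77 and 4.26 CPM in Tox RV. NK cell markers (4 of 5 tested) summed to 132 and 121 CPM in EV RV and 100.2 and 78.2 CPM in Tox RV, and their part in the results below was not tested. *Eomes*, which T cells can also express, held most of this sum. The others were higher in both replicate 1 libraries, with *Klrk1* at 36.6 and 10.5 CPM in EV RV and 17.2 and 4.86 CPM in Tox RV.

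The level of a gene is given in TPM, transcripts per 1000000 transcripts, which corrects for length and so allows genes to be set beside each other. *B2m* was the most abundant member, at 3279 and 2836 TPM in EV RV replicates 1 and 2 and 2823 and 2774 TPM in Tox RV replicates 1 and 2. *H2-K1* followed at 2269 and 2039 TPM in EV RV and 2273 and 2225 TPM in Tox RV. *H2-D1* was at 1552 and 1471 TPM in EV RV and 1516 and 1549 TPM in Tox RV. By mean TPM these 3 ranked 61, 81 and 107 of all genes listed, and the ranges of the 3 over the 4 libraries did not overlap.

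The loading genes were expressed at a lower level. *Tapbp* was at 420.3 and 239.9 TPM in EV RV and 275 and 233 TPM in Tox RV, and *Tap1* at 317 and 294 TPM in EV RV and 226.5 and 240.0 TPM in Tox RV. These ranges overlapped, and *Tapbp* was above *Tap1* in EV RV replicate 1 and Tox RV replicate 1 and below it in the others. *Tap2*, which forms a heterodimer with TAP1, was at 209 and 184 TPM in EV RV and 186 and 171 TPM in Tox RV, below *Tap1* in every library.

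The least abundant were *Erap1*, *Nlrc5* and *Tapbpl*. *Erap1* had 102 and 113 TPM in EV RV and 114 and 109.8 TPM in Tox RV. *Nlrc5* had 122 and 87.7 TPM in EV RV and 75.5 and 73.5 TPM in Tox RV, and its range covered that of *Erap1*. *Tapbpl* had 101.0 and 76.7 TPM in EV RV and 93.3 and 85.3 TPM in Tox RV, within the range of *Nlrc5*.

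**Figure D1:**
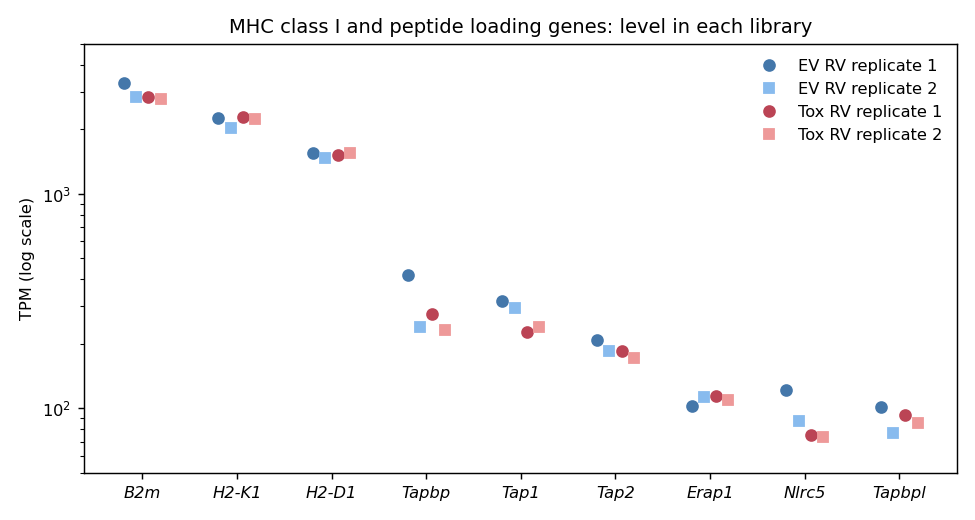
Level of each member in TPM (log scale, vertical) for the 4 libraries (points), ordered by mean level. *B2m*, *H2-K1* and *H2-D1* lie between 1471 and 3279 TPM and the other 6 genes between 73.5 and 420.3 TPM. EV RV replicate 1 stands well above the other libraries for *Tapbp* and *Nlrc5*. Both Tox RV points lie below both EV RV points for *Tap1*, *Nlrc5* and *B2m*.

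Tox RV was compared with EV RV to ask which genes respond to ectopic Tox in unpolarized CD4 T cells. None of the 9 members differed between the groups at an adjusted p-value of 0.05 (edgeR's quasi-likelihood test, p-values adjusted by Benjamini-Hochberg over the 14143 genes tested), a threshold that 0% of those genes passed. *Tox* itself, with a log2 fold change of 3.68, was not called by this test (adjusted p = 0.490, the smallest of any gene), although DESeq2 called it (adjusted p = 3.79e-24). Since the test called no gene at all, 0 calls among the members says little by itself. Without adjustment, 0 members had a p-value below 0.05, against 3.62% of all genes tested. DESeq2, the tool named in the methods, called 0 members as well, against 0.121% of the genes it adjusted. Fold changes above 2 were likewise found for 0 members, against 3.38% of all genes. The log2 fold changes of the members ran from -0.41 to 0.15, with a median of -0.04, against a median of 0.0036 over all genes tested.

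The 95% intervals give the size of change that these libraries leave possible. The intervals of *H2-K1* (0.86-fold to 1.43-fold), *H2-D1* (0.83-fold to 1.39-fold) and *B2m* (0.74-fold to 1.27-fold) excluded a 2-fold change in either direction, and so did those of the other 6. The widest was that of *Tapbp*, from 0.51-fold to 1.31-fold. These intervals are of the fit to all 4 libraries with TMM scaling, and intervals of other fits are not given here. The log2 fold change of *Tapbp* was -0.61 without EV RV replicate 2. With 2 libraries against 2 an exact two-sided permutation test of a single gene cannot go below p = 0.333. In bulk RNA a lower value can mean fewer expressing cells or less RNA per cell, and these cannot be told apart.

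*Nlrc5* had the lowest log2 fold change of the 9, at -0.41 with a standard error of 0.20 (95% interval -0.89 to 0.08, adjusted p = 0.897 by edgeR), and ranked 1016 of 14143 genes by unadjusted p-value. It was at 498 and 375.5 CPM in EV RV and 334 and 325 CPM in Tox RV. The groups were separate, with Tox RV below, but the EV RV libraries differed from each other by 0.41 on the log2 scale, as much as the groups did. Leaving out EV RV replicate 1 brought the value to -0.20, and leaving out EV RV replicate 2 brought it to -0.60 (adjusted p = 0.0604 by edgeR). In that last fit EV RV is the single library that stands apart, assumed to vary as the Tox RV libraries do.

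*Tap1* differed by -0.30 on the log2 scale, with a standard error of 0.16 (95% interval -0.69 to 0.08, adjusted p = 0.897 by edgeR). It was at 529.5 and 517 CPM in EV RV and 411.5 and 436 CPM in Tox RV. Here the replicates lay close together, 0.03 apart in EV RV and 0.08 apart in Tox RV on the log2 scale, and the groups did not overlap. Leaving out any 1 library kept the log2 fold change between -0.35 and -0.27. *Tap2* did not share this pattern, at 293 and 272 CPM in EV RV and 282.5 and 261 CPM in Tox RV, with a log2 fold change of -0.06 (95% interval -0.46 to 0.35). The ratio of *Tap1* to *Tap2* in TPM, which does not depend on how libraries are scaled, was 1.515 in EV RV replicate 1 and 1.59 in EV RV replicate 2, above the 1.22 and 1.40 of the Tox RV libraries.

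*Tapbp* differed by -0.29 on the log2 scale, with a standard error of 0.27 (adjusted p = 0.897 by edgeR), and EV RV replicate 1 decided this value. It was at 654 and 393 CPM in EV RV and 464 and 393 CPM in Tox RV, so that the groups overlapped and the EV RV libraries were 0.74 apart on the log2 scale. The value was 0.12 without EV RV replicate 1 and -0.61 without EV RV replicate 2. *Tapbpl*, whose product edits peptides on class I molecules outside the TAP complex, had 117 and 93.2 CPM in EV RV and 117 and 107 CPM in Tox RV, a log2 fold change of 0.10 (95% interval -0.37 to 0.56).

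The heavy chain genes were slightly higher in Tox RV on the CPM scale. *H2-K1* was at 2064 and 1952 CPM in EV RV and 2247 and 2197 CPM in Tox RV, higher by 0.15 on the log2 scale with a standard error of 0.15 (adjusted p = 0.897 by edgeR). *H2-D1* was at 1474 and 1470 CPM in EV RV and 1565 and 1597 CPM in Tox RV, higher by 0.10 on the log2 scale with a standard error of 0.15 (adjusted p = 0.912 by edgeR). Neither gene had groups that were separate in TPM. *B2m* was at 1391 and 1266 CPM in EV RV and 1302 and 1278 CPM in Tox RV, with overlapping groups and a log2 fold change of -0.04. *B2m* TPM over the summed TPM of *H2-K1* and *H2-D1* was 0.858 in EV RV replicate 1 and 0.808 in EV RV replicate 2, above the 0.745 and 0.735 of the Tox RV libraries. The ratio of *H2-K1* to *H2-D1* overlapped, ordered Tox RV replicate 1 (1.5), EV RV replicate 1 (1.462), Tox RV replicate 2 (1.436), EV RV replicate 2 (1.386). Overlap was also found for the proteasome ratios *Psmb8* to *Psmb5*, *Psmb9* to *Psmb6* and *Psmb10* to *Psmb7*. *Tapbp* to *Tapbpl* was separate, with Tox RV below. How often ratios of other gene pairs separate was not computed, so the separate ones, *Tap1* to *Tap2* included, have no background.

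*Erap1* had 236 and 274 CPM in EV RV and 285.5 and 276 CPM in Tox RV, higher by 0.14 on the log2 scale with a standard error of 0.17 (adjusted p = 0.905 by edgeR). The difference between the EV RV libraries was larger than that between the groups, and the value was 0.03 without EV RV replicate 1.

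**Figure D2:**
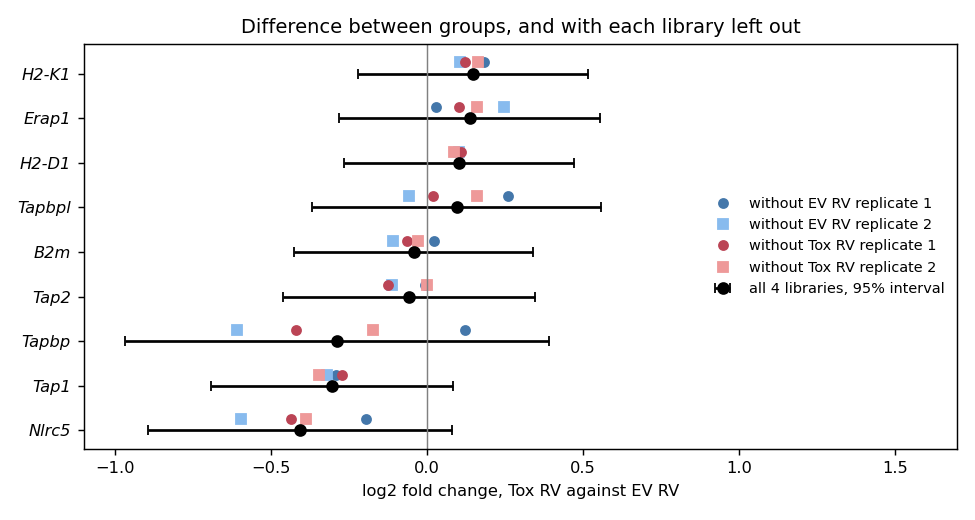
Log2 fold change of each member, Tox RV against EV RV (horizontal), with its 95% interval (black) and the value with each library left out (coloured points). All 9 intervals include 0, the points of *Tap1* stay between -0.35 and -0.27, and those of *Tapbp* spread from -0.61 to 0.12.

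On the CPM scale, 5 of the 9 members had groups that did not overlap, 3 with Tox RV above (*H2-K1*, *H2-D1* and *Erap1*) and 2 with Tox RV below (*Tap1* and *Nlrc5*). Over all genes tested this was so for 36.0%, 18.6% with Tox RV above and 17.4% below. On the TPM scale the groups were separate for 3 members, *Tap1*, *Nlrc5* and *B2m*, each with Tox RV below, against 23.2% of all genes, and for none with Tox RV above, against 11.6%. With CPM of the library totals, which moved the median log2 fold change of all genes to 0.12, Tox RV was above for 5 members, against 27.5% of all genes, and below for 2, against 11.4%. *Tap1* and *Nlrc5* were the members whose groups were separate in the same direction on all 3 scales. The scales use the same libraries and are not independent, and the share of all genes separate on all 3 was not computed.

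RSEM divides reads between similar genes, and class I heavy chain genes are similar to each other. Of the 50-base words of the transcript, 8.79% of those of *H2-K1* and 14.3% of those of *H2-D1* also occur in transcripts of other genes, against 0% for *B2m*, *Nlrc5* and *Erap1*. The shares of *Tap1* and *Tap2* were 0.861% and 0.737%, all of it between the pair. The counts of 30 heavy chain genes were therefore summed to 1 feature, in which *H2-K1* and *H2-D1* held 69.9% and 73.3% of counts in EV RV and 74.0% and 74.4% of counts in Tox RV. The log2 fold change of this sum was 0.07 with a standard error of 0.15 (adjusted p = 0.931 by edgeR). That was below the 0.146 of *H2-K1* and the 0.103 of *H2-D1*. Since these genes hold most of the summed counts, the sum is not independent of them.

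The libraries did not move all members together. Relative to the mean of the 4 libraries, EV RV replicate 1 was 0.49 higher for *Tapbp* and 0.40 higher for *Nlrc5* on the log2 scale, but 0.18 lower for *Erap1* and 0.03 lower for *H2-K1*. The median difference between the EV RV replicates was 0.14 over the members, against 0.38 over all genes tested. Between the Tox RV replicates it was 0.05 against 0.17. The members rank 61 to 1272 by mean TPM among all genes listed, and these comparisons were not matched for level. The genes nearest to the members' mean profile were *Ap3b1*, *Snx12*, *Zfp46*, *Prrc1* and *Cyfip1*, at Euclidean distances of 0.0096 to 0.0247 over the 4 libraries among 9071 genes with a mean of at least 5 TPM. The members themselves lay 0.0428 (*B2m*) to 0.453 (*Tapbp*) from that mean, so these 5 genes were nearer to it than any member.

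**Figure D3:**
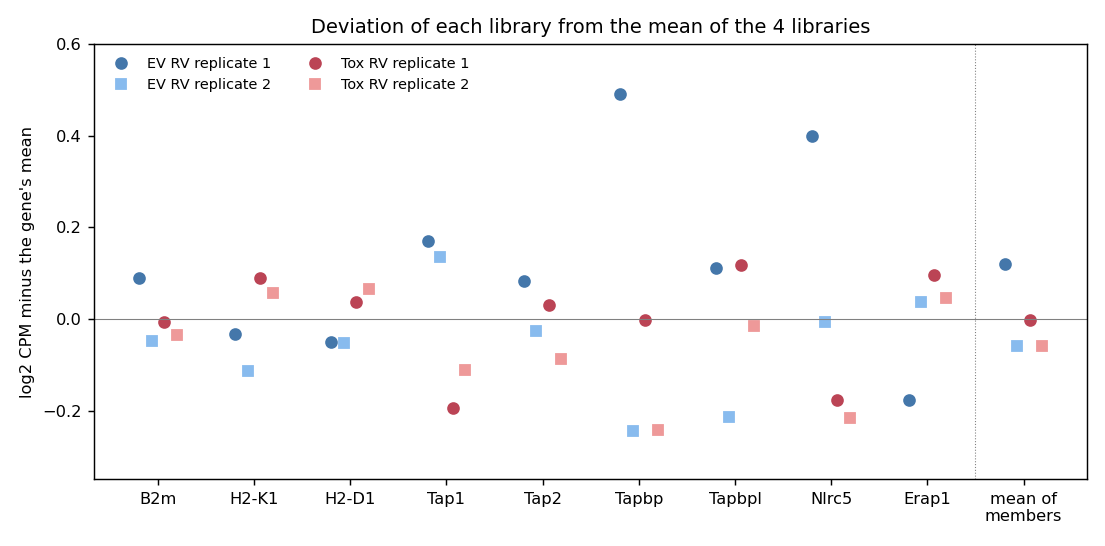
Log2 CPM of each member in each library minus that gene's mean over the 4 libraries (vertical), with the mean of the members at the right. EV RV replicate 1 is highest for *Tapbp* (0.49) and *Nlrc5* (0.40) and lowest for *Erap1* (-0.18), while both EV RV libraries lie above both Tox RV libraries for *Tap1* and *Nlrc5*.

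Genes that work beside the members were described by lists, which are counted here without a test of the list. No gene of any list was called, by edgeR or by DESeq2. Of the 24 other class I heavy chain genes, 19 were tested, 11 with a log2 fold change above 0 and 8 below, with a median of 0.08. The most abundant, *H2-T23*, encodes the Qa-1 molecule and was at 524 and 516 TPM in EV RV and 527 and 509 TPM in Tox RV. In the Q series, *H2-Q4*, *H2-Q5*, *H2-Q6*, *H2-Q8* and *H2-Q9* had log2 fold changes of -0.46 to -0.27, and *H2-Q7* of 0.02. Those of the 5 rested on EV RV replicate 1, without which they were -0.07 to 0.02. *H2-Q4*, the most abundant of these, was at 434 CPM in EV RV replicate 1 and at 312, 307 and 295 CPM in EV RV replicate 2 and Tox RV replicates 1 and 2. The other 3 of the Q series, *H2-Q1*, *H2-Q2* and *H2-Q10*, were below 7 TPM in each library and had values of 0.29 to 0.91. The T and M series (*H2-T10*, *H2-T22*, *H2-T24* and *H2-M3*) had values of -0.23 to 0.29. *H2-T3*, *H2-T9*, *H2-Bl*, *Cd1d1* and *Mr1* were weakly expressed, at 4.27 TPM or less, with values of -0.24 to 0.31.

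Of the proteasome genes, the 5 of the immunoproteasome and its PA28 activator had log2 fold changes of -0.07 to 0.09, and the groups overlapped for each of the 5. *Psmb8*, which encodes the β5i subunit, was at 509 and 561 TPM in EV RV and 523 and 553 TPM in Tox RV. The 3 constitutive subunits had values of 0.05 to 0.22, with *Psmb6* at 177 and 263 TPM in EV RV and 229 and 259 TPM in Tox RV. The 7 chaperones of the endoplasmic reticulum had a median of 0.11. Calreticulin (*Calr*), a part of the loading complex, was at 679 and 1123 TPM in EV RV and 1012 and 1193 TPM in Tox RV, with the lowest value in EV RV replicate 1. The 6 further peptidases had a median of 0.03, and *Lnpep*, which encodes a relative of ERAP1, was at 107 and 56.9 TPM in EV RV and 67.1 and 55.8 TPM in Tox RV.

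Of 12 transcription factors that act at class I promoters, 5 had values above 0 and 7 below, with a median of -0.17. *Irf1* was at 394 and 377 CPM in EV RV and 349.5 and 341 CPM in Tox RV, a log2 fold change of -0.16 (95% interval -0.55 to 0.23).

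Interferon-γ induces class I genes through its receptor and JAK kinases. *Ifng* itself was at 10.9 and 107 CPM in EV RV and 96.0 and 47.4 CPM in Tox RV, lowest in EV RV replicate 1. Whether *Ifng* bears on the levels of the members was not tested. The log2 fold change of *Ifng* was 0.29 (95% interval -2.05 to 2.62). Of the 68 tested genes of the pathway lists, 2 (2.94%) had an unadjusted p-value below 0.05, a share below the 3.62% of all genes, and both were chosen for mention after seeing the data. They were the receptor chains *Ifngr1*, at 336 and 201 CPM in EV RV and 174 and 162 CPM in Tox RV, and *Ifngr2*, at 26.3 and 27.8 CPM in EV RV and 17.3 and 19.99 CPM in Tox RV. Their log2 fold changes were -0.68 and -0.54 (standard errors 0.27 and 0.18) and each had an adjusted p of 0.897 by edgeR. Without EV RV replicate 1 that of *Ifngr1* was -0.27 and that of *Ifngr2* -0.58. *Socs1*, a feedback inhibitor of the pathway, was at 124 and 183 CPM in EV RV and 136 and 135 CPM in Tox RV.

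The MHC class II pathway served as a contrast. Its genes summed to 241 and 185 TPM in EV RV and 209 and 175 TPM in Tox RV. The members summed to 8373 and 7341 TPM in EV RV and 7581 and 7460 TPM in Tox RV. Not all class II genes were low, with *Cd74* at 45.9 to 67.8 TPM and *H2-DMa* at 32.8 to 54.8 TPM over the libraries. *Ciita*, the class II counterpart of *Nlrc5*, was at 0.47 and 0.38 TPM in EV RV and 0.30 and 0.42 TPM in Tox RV. *H2-Ab1*, the most abundant of the 10 genes, was at 54.2 and 48.8 TPM in EV RV and 76.0 and 56.0 TPM in Tox RV, a log2 fold change of 0.44 (95% interval -0.07 to 0.96). The other 9 genes of this list had values below 0, and the median was -0.36. Without EV RV replicate 1 the median was 0.00069, and *Cd74*, *H2-Aa*, *H2-Eb1* and *H2-Oa* had values above 0.

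**Figure D4:**
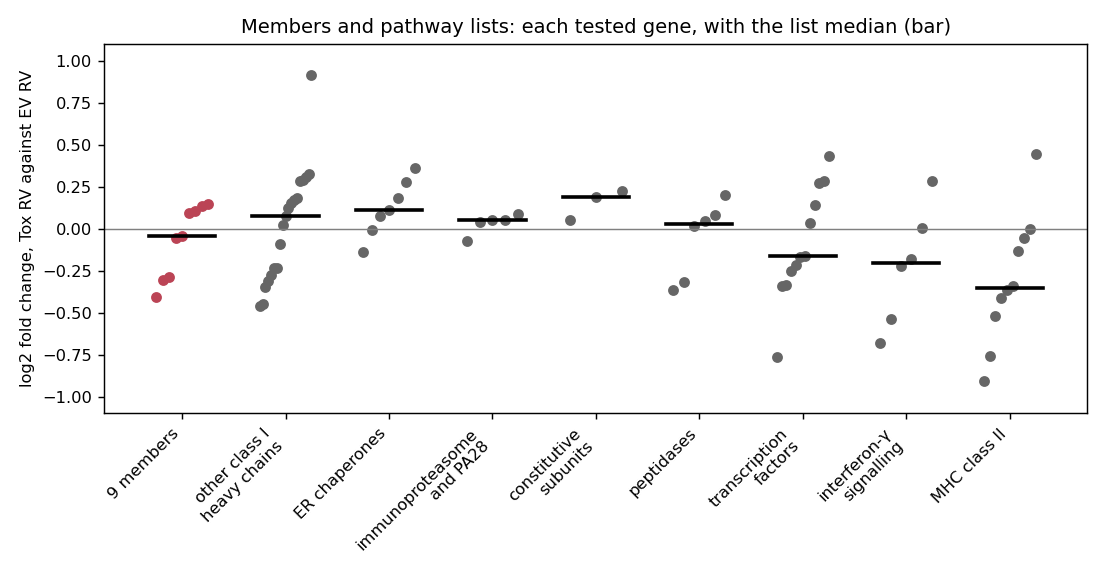
Log2 fold change, Tox RV against EV RV (vertical), of each tested gene of the 9 members and of 8 pathway lists, with the list median as a bar. The members lie between -0.41 and 0.15, the immunoproteasome genes between -0.07 and 0.09, and no point in any list passed the test.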

How the data were processed

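The authors checked reads with FastQC, aligned them to mm10 transcripts with bowtie1 and quantified genes with RSEM, with 1 library per file. Versions and use of strand are not given in the sources used here. Expected counts, as deposited, are unnormalized RSEM estimates for each gene. The deposited TPM are transcripts per 1000000 transcripts, and the deposited FPKM (fragments per kilobase and 1000000 fragments), which were not needed, come from the same step. A further deposited table of normalized values was not used here.

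Rounded expected counts were tested with edgeR 4.0.16 under R 4.3.3. filterByExpr (minimum count 10) kept 14143 genes, TMM gave the scaling, and glmQLFit and glmQLFTest tested Tox RV against EV RV without a replicate block, with Benjamini-Hochberg adjustment. Standard errors came from the fold change and the F statistic. The spread behind each p-value and interval is that between 2 libraries per group, moderated toward a trend over all genes (prior degrees of freedom 3.77). It is therefore not the spread of that gene's replicates alone. Depth was 46989997 to 74548723 expected counts per library. DESeq2 1.42.0 and limma 3.58.1 on log2(TPM + 1) and log2(TPM + 0.1) were alternatives, with other scalings, no filter, the replicate block, each library left out, removal of *Rn45s* and summed heavy chains. The code for the tests was tested on simulated data, whose values are not quoted here.

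The members and lists were chosen with earlier results of these data known. Genes named were the members, the other heavy chain genes tested, the most abundant gene of each list, list genes past an adjusted p of 0.05 or a 2-fold change, *Irf1*, *Ciita*, *Ifng*, *Tox* and the 5 nearest profiles, and 1 further gene of this rule and 1 motif searched are not reported here. Others are marked or serve as cell type markers, neighbours in the genome or copies. Positions are from GENCODE M21 (GRCm38).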

Additional observations from a re-analysis of the deposited data

How the results depend on the processing

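No member passed an adjusted p-value of 0.05 under any of the alternatives tried, in which the smallest adjusted p of a member was 0.0604 (*Nlrc5*, edgeR without EV RV replicate 2). Over all genes tested the count called, 0, became 22 without the filter on low counts, 22 with DESeq2, which was also run without that filter, and 16 with the replicate block, and 1 to 393 with a library left out. The median of the members, -0.04, was 0.083 when scaled by library totals, which moved the median of all genes to 0.12, and -0.12 with limma on log2(TPM + 1) or log2(TPM + 0.1). Scaling by library totals also turned *B2m* to 0.083 and *Tap2* to 0.067, each below that shift. With a library left out, *B2m* ranged from -0.11 to 0.021, *Tapbp* from -0.61 to 0.12 and *Tapbpl* from -0.058 to 0.26, while *Nlrc5*, *Tap1*, *H2-K1*, *H2-D1* and *Erap1* kept their direction and *Tap2* ranged from -0.13 to -8.7e-05.

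The median of the chaperones, 0.11, was 0.23 with library totals and 0.025 with limma on either TPM scale. With a library left out, medians ranged from -0.019 to 0.24 for chaperones, from -0.11 to 0.55 for constitutive proteasome subunits, from -0.23 to 0.15 for transcription factors and from -0.39 to 0.00069 for the class II pathway. Counts called ranged from 0 to 1 for other heavy chains, chaperones, transcription factors and interferon-γ signalling, where *H2-Q5*, *Hspa5*, *Irf2* and *Ifngr1* passed without EV RV replicate 2, a fit in which EV RV is the single library that stands apart and is assumed to vary as the Tox RV libraries do. The cause was not tested.

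The labels give both groups replicate numbers 1 and 2, but do not say that a number marks a shared mouse or day. Deviations of same-numbered libraries from their group means correlated at 0.302 over genes. With the replicate block the number of genes called rose from 0 to 16, and no member was called (smallest adjusted p 0.608 by edgeR).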
